A study of Rattus norvegicus with 25 samples.

Results

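The EGR (early growth response) genes Egr1, Egr2, Egr3 and Egr4 encode nuclear transcription factors with C2H2 zinc fingers. Their mRNA was examined in the striatum of adolescent Lister hooded rats. The members were all probe sets whose platform annotation gave exactly 1 of these symbols, which found 4 of 29214 probe sets, 1 for each gene. Con (n = 8) were male offspring of dams with free access to food, Nic (n = 7) were male offspring of dams that drank nicotine dissolved in their water before and during pregnancy, and Con-Pf (n = 10) were male offspring of pair-fed dams. The daily ration of a pair-fed dam was set by the intake of a Nic dam, with a lag of a day, and it drank plain water. All offspring were killed between postnatal day (PND) 35 and 42, were naive to experiments, and carried no genetic manipulation. Levels are log2 values on 25 Affymetrix rat gene arrays, 1 array per sample, and the number of arrays limits the precision. The labels do not tie samples to litters, so the p-values measure only the spread between these samples, each treated as independent. The study lists fewer pair-fed dams than the 10 Con-Pf arrays, so pups of 1 litter must be among these arrays. They may be among those of the other groups too.

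EGR genes are immediate early genes. In neurons their transcription starts within minutes of synaptic activity, without the need for new protein, when calcium and ERK kinase signals reach serum response factor (SRF) with its ELK partners, and CREB, at their promoters. The EGR proteins then bind GC-rich sites and switch later genes on or off, and the NAB proteins bind them and limit their activity. Egr1 (Zif268, NGFI-A) is widely used as a marker of neuronal activity and plasticity. Egr2 (Krox20) is best known for driving myelination by Schwann cells and for hindbrain patterning, Egr3 for muscle spindle development and neuronal plasticity, and Egr4 is a further brain-expressed member.

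The promoters are shown because the members rose together in 1 comparison and are known for elements near the start that respond to activity. The RefSeq table (GRCr8) held a promoter for 3 of the 4 genes, Egr1, Egr2 and Egr4. The lines below give the 250 bases before each transcript start, 5′ to 3′ on the strand of the gene, at chr18:26736828-26737077 (plus strand) for Egr1, chr20:21054442-21054691 (minus strand) for Egr2 and chr4:119607818-119608067 (minus strand) for Egr4. Capitals mark the CArG box, the DNA element of SRF, and the letters TGACG, the core of the CREB site, which read CGTCA where they lie on the other strand.
Egr1: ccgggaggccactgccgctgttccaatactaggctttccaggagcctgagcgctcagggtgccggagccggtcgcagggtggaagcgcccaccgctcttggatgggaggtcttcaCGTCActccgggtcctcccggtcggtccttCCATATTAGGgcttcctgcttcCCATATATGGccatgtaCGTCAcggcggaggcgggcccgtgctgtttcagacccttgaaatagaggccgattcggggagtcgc
Egr2: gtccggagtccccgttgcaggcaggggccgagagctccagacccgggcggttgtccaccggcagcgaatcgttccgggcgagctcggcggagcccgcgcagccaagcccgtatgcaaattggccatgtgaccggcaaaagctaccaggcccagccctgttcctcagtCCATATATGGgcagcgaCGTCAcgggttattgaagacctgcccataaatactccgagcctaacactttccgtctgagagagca
Egr4: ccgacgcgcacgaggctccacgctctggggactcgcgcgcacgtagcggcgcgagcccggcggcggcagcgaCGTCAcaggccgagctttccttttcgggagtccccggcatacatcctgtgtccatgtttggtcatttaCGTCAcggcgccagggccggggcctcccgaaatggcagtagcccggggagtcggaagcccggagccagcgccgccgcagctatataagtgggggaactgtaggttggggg

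Egr1 had 2 CArG boxes, CCATATTAGG from 105 to 96 and CCATATATGG from 83 to 74 bases before the start. Egr2 had 1, with the same letters CCATATATGG at the same distance, 83 to 74 bases. The Egr2 window lies inside the whole gene given below, so the table used a start other than the outermost one, and the distances depend on that choice. Both genes also carried CGTCA from 66 to 62 bases before the start, so that the spacing between these elements was equal. Egr1 had another CGTCA from 135 to 131 bases. No CArG box of the strict form searched, CCWWWWWWGG with W for A or T, was found in the Egr4 window. That window holds ccatgtttgg, which departs from this form in 1 letter, and near matches were not searched for. It held CGTCA from 178 to 174 and from 110 to 106 bases. Over 33469 RefSeq promoters searched in the same way on both strands, 1.5% held a CArG box, 18.2% held TGACG and 0.23% held both. The EGR protein site GCGNGGGCG, which 4.29% of the promoters held, was not found in these windows, nor was its form GCGTGGGCG (0.478%), nor the full CREB site TGACGTCA (1.59%). A match is a description of letters and not a sign of binding. The whole genes lie at chr18:26737078-26740877 (Egr1), chr20:21050149-21055201 (Egr2), chr15:51560482-51565778 (Egr3) and chr4:119605358-119607817 (Egr4) in GRCr8. Which part of each transcript a probe set reads was not given in the sources used here.

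Some arrays bear on the results before any comparison. Any pair of arrays correlated at r = 0.967 to 0.997 across probe sets (median 0.991). On the first principal component, which carried 30.45% of the variance, Con 3 (score -25.24) and Con 5 (-33.93) stood apart from the other arrays (-11.63 to 9.626). The supplement of the study reports a sample with a low RNA integrity number that was kept for processing, and puts the value down to chip loading. Which sample it was, and whether it is among the 25 arrays, was not given. Con-Pf 9 and Con-Pf 10 are pair-fed in their title and source, whereas their description is that of the control group. The statistics section of the study counts more Con and fewer Con-Pf arrays than the titles do, by as many as these 2. The design text of the series has the counts of the titles. The study's sample section has equal numbers of Con and Con-Pf, of which 2 Con arrays were then removed, which also gives the counts of the titles. The log2 changes that the study printed between Con and Con-Pf, 1.22 for Egr2, 0.61 for Egr4 and 0.55 for Egr1, equal those of the grouping by title. With these 2 arrays counted as Con they were 0.93, 0.40 and 0.43. Con-Pf 9 and Con-Pf 10 were kept in Con-Pf. Every Con-Pf and Con value below rests on this choice, and results without them, or with them counted as Con, are given where a call ends. Of the markers of striatal projection neurons, 9 of 11 listed passed the filter on low values. Their mean level lay between 11.82 and 12.02 on all arrays, and none was called in any comparison. Between Con-Pf and Con, 1.00% of all kept probe sets were called higher and 0.260% lower, so a list this short need hold no call.

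Egr1 was the member with the brightest probe set, at the 98.5 percentile of all probe-set means, followed by Egr3 (92.8), Egr2 (68.8) and Egr4 (67.5). All 4 passed the filter, which kept the 14607 probe sets with a mean at or above the median. Brightness depends on the probes, so levels were compared between groups and not between genes.

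The first comparison sets Con-Pf, from pair-fed dams, against Con, from dams with free access to food, both without nicotine. Reduced food intake came with an imposed ration, and the pair-fed dams also drank less in the week before pregnancy. The paper names higher stress in pair-fed animals as a possible added factor. It reads the changes of immediate early genes as baseline ones. It does not fully exclude that pair-feeding raised the offspring's sensitivity to stress and their reaction to being killed. All these factors cannot be told apart here. All 4 EGR genes rose. Egr2 rose most, 2.34-fold, Egr4 rose 1.52-fold, Egr1 1.47-fold and Egr3 1.22-fold (limma over all arrays, Benjamini-Hochberg adjusted p below 0.05 in each). In the same comparison 1.00% of all kept probe sets were called higher and 0.260% lower, and the median change of all was 0.02 on the log2 scale. The 184 probe sets called in either direction became 104, 108, 114 and 116 without Con 3, Con 5, Con 1 or Con-Pf 2, and 285, 295, 344 and 480 without Con 4, Con 8, Con 6 or Con 7. With Con-Pf 9 and Con-Pf 10 counted as Con, 27 were called. In bulk tissue, a change in the number of cells that express a gene and a change in RNA per cell cannot be told apart.

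Egr1 levels in Con ran from 11.77 (Con 1) over a median of 11.99 to 12.18 (Con 6), with a mean of 11.98 ± 0.15 (SD, n = 8). In Con-Pf they ran from 12.30 (Con-Pf 7) over 12.55 to 12.69 (Con-Pf 6), with a mean of 12.53 ± 0.12 (SD, n = 10). The lowest Con-Pf array was above the highest Con array, so the groups did not overlap. The log2 difference was 0.55 (SE 0.06, limma adjusted p = 4.66e-07), which ranked 24 among 14607 probe sets ordered from the largest rise down.

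Egr2 moved furthest of the members and had the largest rise but 1 of all kept probe sets. Its levels were 7.69 (Con 4) to 8.20 (Con 7) in Con, median 7.83, and 8.31 (Con-Pf 7) to 9.53 (Con-Pf 8) in Con-Pf, median 9.15. The means were 7.89 ± 0.19 (SD, n = 8) and 9.11 ± 0.37 (SD, n = 10). The groups did not overlap, although Con-Pf 7 came close to the Con range and the next lowest Con-Pf array, Con-Pf 3, was at 8.75. The log2 difference was 1.22 (SE 0.13, limma adjusted p = 4.66e-07), at rank 2 in the same order. The study also measured Egr2 by qRT-PCR on the same RNA, against Con and against Nic. It reports the direction of its arrays, with one-tailed p-values far larger than the p-values of its arrays.

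Egr4 levels were 7.83 (Con 5) to 8.24 (Con 7) in Con, median 8.08, and 8.30 (Con-Pf 3) to 9.03 (Con-Pf 10) in Con-Pf, median 8.75. The means were 8.09 ± 0.15 (SD, n = 8) and 8.70 ± 0.27 (SD, n = 10). Here too the groups did not overlap, with Con-Pf 3 and Con-Pf 7 (8.30 each) just above the Con arrays. The log2 difference was 0.61 (SE 0.09, limma adjusted p = 0.000172), at rank 17 in the same order.

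Egr3 differed from the other members in that its groups overlapped. Con arrays ran from 10.28 (Con 5) over a median of 10.75 to 10.92 (Con 7), mean 10.68 ± 0.23 (SD, n = 8), and Con-Pf arrays from 10.87 (Con-Pf 1) over 10.97 to 11.08 (Con-Pf 6), mean 10.96 ± 0.07 (SD, n = 10). Of the 10 Con-Pf arrays, 7 were above the highest Con array. The lowest Con arrays, Con 5 and Con 3 (10.38), are those that stood apart on the first principal component. The log2 difference was 0.28 (SE 0.07, limma adjusted p = 0.0299). It was 0.16 without Con 3 and Con 5 (adjusted p = 0.0996) and 0.28 without Con-Pf 9 and Con-Pf 10 (adjusted p = 0.0754), so the call was lost in both. Of all kept probe sets 85 were called without Con 3 and Con 5, and 116 without Con-Pf 9 and Con-Pf 10, in place of 184. The count of members called was then 3 of 4 in either case. With Con-Pf 9 and Con-Pf 10 counted as Con, 2 of 4 were called, Egr1 at 0.43 (adjusted p = 0.0255) and Egr2 at 0.93 (adjusted p = 0.0494), while Egr3 (0.22, adjusted p = 0.31) and Egr4 (0.40, adjusted p = 0.283) were not.

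Groups did not overlap for 3 of the 4 members, against 0.233% of all kept probe sets that were higher without overlap. By the thresholds of the study, an unadjusted p under 0.01 with a log2 change of at least 0.5, 3 of the 4 passed (Egr1, Egr2 and Egr4), against 0.185% of all.

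**Figure D1:**
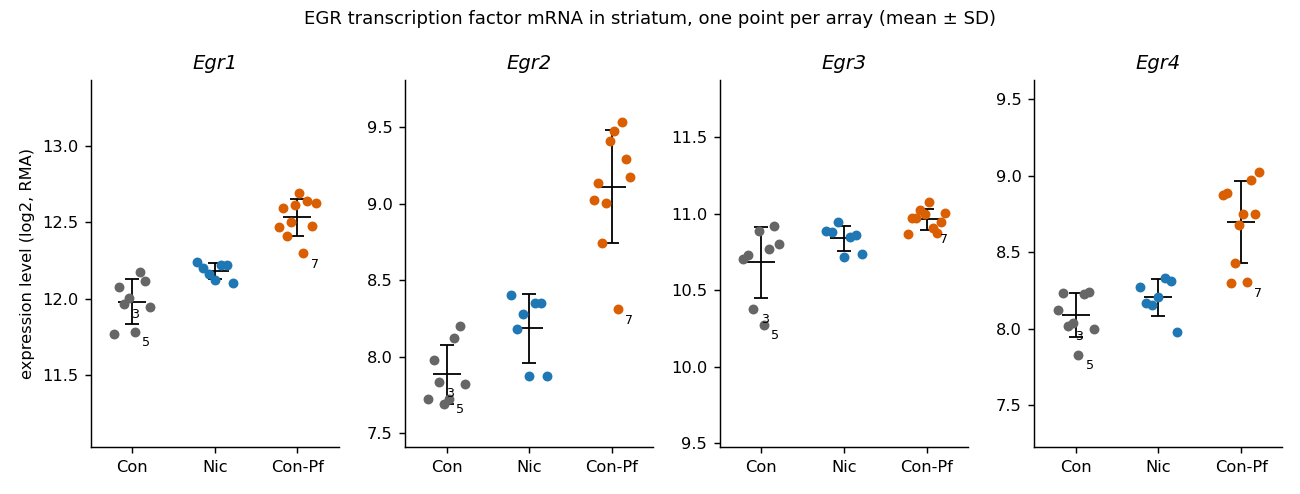
Level of each EGR gene (y axis, log2 RMA value, all panels spanning the same log2 range) on every array, by group (x axis), with bars for the mean ± SD of Con (n = 8), Nic (n = 7) and Con-Pf (n = 10). Numbers mark Con 3, Con 5 and Con-Pf 7. Con-Pf lies above Con without overlap for Egr1, Egr2 and Egr4, while Egr3 overlaps and has Con 3 and Con 5 as its lowest arrays.

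The comparison of Con-Pf with Nic sets 2 groups of reduced maternal food intake against each other, with nicotine in 1 of them. The ration was imposed on the Con-Pf dams only, and the Nic dams drank less than they did, so nicotine is not the only difference. The 2 comparisons that involve Con-Pf share its arrays. Egr2, Egr4 and Egr1 were higher in Con-Pf than in Nic, 1.90-fold, 1.41-fold and 1.28-fold, and passed the test. Egr3 was not called. With Con-Pf 9 and Con-Pf 10 counted as Con these 3 calls were lost, at similar differences of 0.89 for Egr2 (adjusted p = 0.225), 0.44 for Egr4 (adjusted p = 0.768) and 0.35 for Egr1 (adjusted p = 0.44), and 5 probe sets of all were called in place of 27. Of all kept probe sets 0.171% were called higher in this comparison and 0.0137% lower, and the median change was -0.01 on the log2 scale.

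Nic arrays had Egr1 levels of 12.10 (Nic 7) to 12.24 (Nic 1), median 12.20 and mean 12.18 ± 0.05 (SD, n = 7). All 10 Con-Pf arrays were above them, by a log2 difference in means of 0.35 (SE 0.06, limma adjusted p = 0.00215).

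Egr2 levels in Nic were 7.87 (Nic 7) to 8.40 (Nic 1), median 8.28 and mean 8.19 ± 0.23 (SD, n = 7). Of the Con-Pf arrays, 9 of 10 were above the highest of them, and Con-Pf 7 fell within the Nic range. Means differed by 0.92 on the log2 scale (SE 0.13, limma adjusted p = 0.000501).

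Egr4 levels in Nic were 7.98 (Nic 7) to 8.33 (Nic 5), median 8.21 and mean 8.21 ± 0.12 (SD, n = 7). Con-Pf 3 and Con-Pf 7 lay within the Nic range and 8 of 10 Con-Pf arrays above it. The log2 difference was 0.49 (SE 0.09, limma adjusted p = 0.0128), and 0.45 with an adjusted p of 0.0509 without Nic 7.

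Egr3 levels in Nic were 10.72 (Nic 4) to 10.95 (Nic 3), median 10.86 and mean 10.84 ± 0.08 (SD, n = 7). The difference of 0.12 from Con-Pf did not pass the test (95% interval -0.02 to 0.27, limma adjusted p = 0.999), and 6 of 10 Con-Pf arrays were above the highest Nic array. Only Egr1 was free of overlap among the members, against 0.0685% of all kept probe sets, and only Egr2 passed the thresholds of the study, against 0.0822% of all.

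Nic against Con is the comparison of nicotine together with the intake that goes with it. None of the 4 members was called, and the same held for all kept probe sets, where 0% were called in either direction at an adjusted p under 0.05 and 0% were higher by the thresholds of the study, by which 3 probe sets were lower. The smallest adjusted p of all was 0.268, while 2370 of 14607 probe sets had an unadjusted p under 0.05. The methods' t-test also called 0. The members' log2 differences were 0.20 for Egr1 (95% interval 0.08 to 0.32, p = 0.0027 by limma, adjusted p = 0.268), 0.30 for Egr2 (0.02 to 0.58, adjusted p = 0.292), 0.16 for Egr3 (0.01 to 0.31, adjusted p = 0.295) and 0.12 for Egr4 (-0.08 to 0.32, adjusted p = 0.513). Every member overlapped between these groups, whereas 0.0274% of all kept probe sets were higher in Nic without overlap. For Egr1, 4 of 7 Nic arrays were above the highest Con array. The Egr3 difference was 0.04 without Con 3 and Con 5 (adjusted p = 0.962). The mean level of each of the 4 genes ran in the order Con, Nic, Con-Pf. Of all kept probe sets 59.14% were higher in Nic than in Con, with a median log2 change of 0.02. In Con-Pf 44.07% were higher than in Nic. The share of all probe sets in the order of the members was not computed. Between the neighbours Con and Nic no member passed after adjustment over all probe sets, although the intervals of Egr1, Egr2 and Egr3, which are not adjusted, lay above 0. Between Nic and Con-Pf, Egr1, Egr2 and Egr4 passed.

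**Figure D2:**
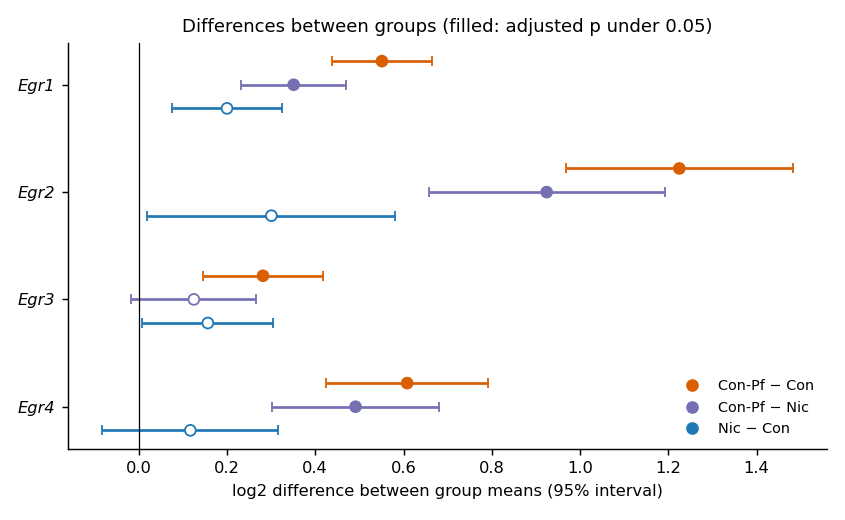
Log2 difference between group means (x axis) for each EGR gene (y axis), with bars for the 95% interval from the model and filled points for an adjusted p under 0.05. Egr2 lies furthest to the right against both other groups, and the Nic minus Con points are all open.

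Whether one member moved more than another was tested on the difference of 2 genes on the same array, over 6 pairs and 3 comparisons (18 exact permutation tests, two-sided, Benjamini-Hochberg adjusted). Probe sets may respond with different slopes, so these are differences of measured changes. From Con to Con-Pf, Egr2 rose more than Egr1 by 0.67 (SE 0.09, exact adjusted p = 0.000823), more than Egr4 by 0.62 (SE 0.09, exact adjusted p = 0.000823) and more than Egr3 by 0.94 (SE 0.14, exact adjusted p = 0.000823), all on the log2 scale. Egr3 rose less than Egr1, with a log2 difference of changes of -0.27 (SE 0.08, exact adjusted p = 0.00499). Egr4 rose more than Egr3 by 0.33 (SE 0.11, exact adjusted p = 0.023), a call that was lost without Con-Pf 9 and Con-Pf 10, where it was 0.28. The changes of Egr4 and Egr1 differed by 0.06, with a 95% interval of -0.10 to 0.21, and did not pass (exact adjusted p = 0.522).

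Against Nic the order was alike. Egr2 exceeded Egr1 by 0.57 (SE 0.11, exact adjusted p = 0.00139), and Egr3 fell short of Egr1 with a difference of -0.23 (SE 0.04, exact adjusted p = 0.00116). The changes of Egr4 and Egr1 differed by 0.14 (95% interval -0.01 to 0.29, exact adjusted p = 0.144). In all, 5 of the 6 pairs passed in each comparison with Con-Pf. From Con to Nic 1 pair passed, Egr4 below Egr2 by a log2 difference of -0.18 (exact adjusted p = 0.0478), and it did not pass when arrays were quantile normalized again (-0.18), without Con 3 and Con 5 (-0.20) or without Con-Pf 9 and Con-Pf 10 (-0.18), which changes only the adjustment.

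Single animals tended to keep their place across 3 of the genes, with exceptions. Within the groups, arrays high in Egr1 tended to be high in Egr2 and in Egr4. After each group's mean was taken off, Egr1 and Egr2 correlated at Pearson r = 0.80 over the 25 arrays (Spearman rho 0.83, permutation within groups p = 1e-05, adjusted over 6 pairs 6e-05, with 1e-05 the smallest p that 100000 permutations can give). Within Con alone r was 0.81, within Nic 0.92 and within Con-Pf 0.90, and without the 2 arrays farthest from the median in Egr1, Con-Pf 7 and Con 1, r was 0.77.

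Egr2 and Egr4 correlated at r = 0.72 (rho 0.64, permutation p = 0.00027 for r and 0.00178 for rho, adjusted p = 0.00054 and 0.00356), with r = 0.60 without Con-Pf 7 and Con-Pf 8. Egr1 and Egr4 correlated at r = 0.69 (rho 0.67, permutation p = 0.00024 and 0.00122, adjusted p = 0.00054 and 0.00356), with r = 0.70 without Con-Pf 7 and Con 1. In Con, Nic and Con-Pf alone r was 0.76, 0.74 and 0.72 for Egr2 with Egr4 and 0.73, 0.82 and 0.73 for Egr1 with Egr4. Con-Pf 7 was the lowest Con-Pf array in Egr1 and Egr2 and the second lowest in Egr4. Nic 7 was the lowest Nic array in these 3 genes. Other arrays changed place. Con 4 was the lowest Con array in Egr2 but above the Con median in Egr1. Con 1 was the lowest Con array in Egr1 but above the Con median in Egr4.

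The correlations of Egr3 with the other members did not pass in r, and whether they differ from those of the other pairs was not tested. Its r was 0.50 with Egr1 (rho 0.53, permutation p = 0.0374 and 0.0086, adjusted p = 0.0561 and 0.0129), 0.31 with Egr2 (rho 0.39, permutation p = 0.0491 and 0.0484, adjusted p = 0.0589 and 0.058) and 0.26 with Egr4 (rho 0.12, permutation p = 0.128 and 0.534, adjusted p = 0.128 and 0.534). Without the 2 farthest arrays r was 0.59 with Egr1 and 0.41 with Egr2, and with Egr4 it was 0.07 without Con 5 and Con 3. The rho with Egr1 passed the adjustment. In Con, Nic and Con-Pf alone r was 0.56, 0.66 and 0.46 with Egr1, 0.42, 0.84 and 0.26 with Egr2, and 0.68, 0.38 and -0.12 with Egr4, so that single groups held values as high as those of the other pairs.

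Egr3 followed the first principal component of all kept probe sets. That component carried 30.45% of their variance, so other probe sets follow it too. The share with an r like that of Egr3 was not computed, so the relation is not shown to be particular to Egr3. Over deviations from group means its r with that component was 0.90 (rho 0.72, permutation p = 3e-05 and 0.00083, adjusted p = 0.00036 and 0.00996 over 12 relations of the 4 genes with this component, the cortical and the choroid plexus marker level), and r was 0.76 without Con 5 and Con 3. This relation was added after the data were seen. For Egr1, Egr2 and Egr4 the r with the component was 0.42, 0.12 and 0.13 (permutation adjusted p = 0.539, 0.639 and 0.639). The part of whatever sets this component in the Egr3 change was not tested.

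**Figure D3:**
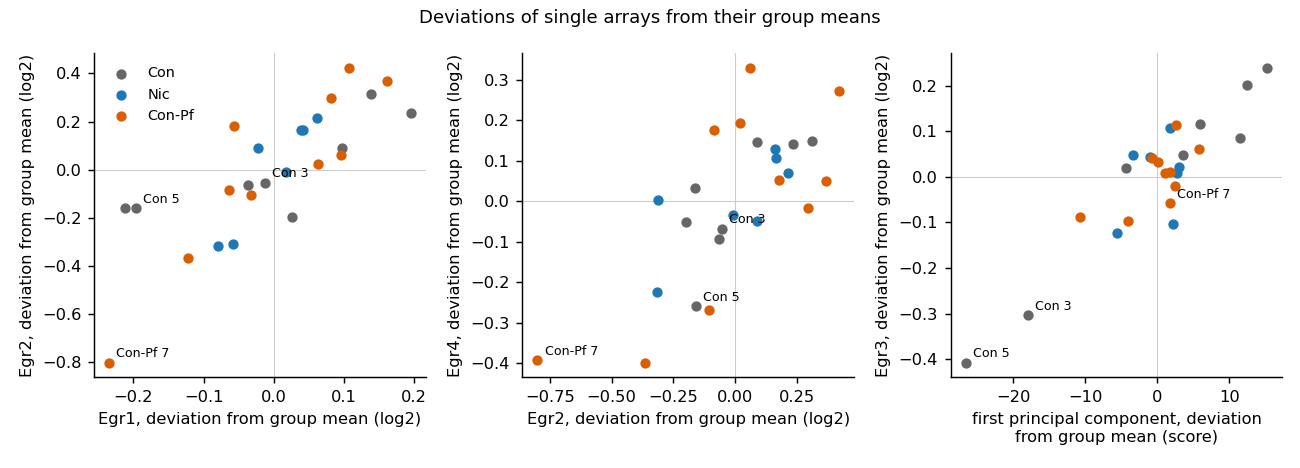
Deviation of each of 25 arrays from its group mean, for Egr2 against Egr1 (left), Egr4 against Egr2 (middle), both axes in log2 units, and Egr3 in log2 units against the score on the first principal component (right). The left and middle panels hold points of all groups along a rising line (r = 0.80 and 0.72), and in the right panel Con 3 and Con 5 sit at the low end of both axes (r = 0.90).

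The genes whose level followed each member most closely were read from all kept genes with 1 symbol, by Pearson r over deviations from group means on 25 arrays, as a description. For Egr1 they were Dusp14, a phosphatase of MAP kinases (r = 0.87), Egr2 (0.80), the splicing factor Tra2b (0.74), Rgs2, a regulator of G protein signalling (0.70), and Egr4 (0.69). For Egr2 they were Egr1 (0.80), the nuclear receptor Nr4a3 (0.80), the AP-1 member Fosl2 (0.80, by the brighter of its probe sets, for which the study's own table has the name Fosb where the platform annotation has Fosl2), Rgs2 (0.78) and the nuclear receptor Nr4a1 (0.74). For Egr4 they were Fosl2 (0.86), Nr4a3 (0.83), Arhgef3 (0.76), the MAP kinase phosphatase Dusp4 (0.76) and C3h11orf96 (0.73). The list of Egr3 held no immediate early gene. It had Gstm5, a glutathione transferase (0.90), Lamtor4, a part of the lysosomal Ragulator complex (0.90), Cox4i1, a subunit of cytochrome c oxidase (0.89), the peptidyl-prolyl isomerase Ppia (0.89) and the ribosomal protein Rpl28 (0.89). None of these 5 was called in any comparison. Their log2 difference between Con-Pf and Con ran from 0.08 (Cox4i1) to 0.21 (Gstm5), next to 0.28 for Egr3.

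Upstream of the EGR genes, 19 of 27 listed genes of the ERK, SRF and CREB route were measured and kept. Between Con-Pf and Con 1 rose, 0 fell and 18 did not pass, with a median log2 change of 0.02 beside 0.02 over all genes. Of all kept probe sets 1.00% were called higher in this comparison and 0.260% lower. The one that rose was Srf, which binds the CArG box (10.71 ± 0.08 in Con-Pf, 10.53 ± 0.08 in Con, log2 difference 0.18, SE 0.04, limma adjusted p = 0.0187). Of those that did not pass, the smallest p-values belonged to the calcium-dependent kinase Camk4 (-0.14, adjusted p = 0.0949), the CREB relative Atf1 (0.14, adjusted p = 0.139) and the CREB coactivator Crtc2 (0.14, adjusted p = 0.177). Srf was 0.12 higher in Con-Pf than in Nic (adjusted p = 0.638). These are transcript levels and hold no information on phosphorylation, through which the route acts.

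Of the cofactors, 6 of 7 listed were kept and 0 were called between Con-Pf and Con (median -0.01). With 1.00% of all kept probe sets called higher and 0.260% lower, a list as short as this or the next need hold no call. Nab2, a corepressor that EGR proteins themselves induce, had a log2 difference of 0.14 (SE 0.04, limma adjusted p = 0.0554). Its relative Nab1 was at -0.07 (adjusted p = 0.608). Of 7 listed zinc finger factors that bind similar GC-rich sites, 5 were kept and 0 were called (median 0.07), with Maz at 0.11 (adjusted p = 0.198) and Sp4 at 0.07 (adjusted p = 0.423).

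Downstream, 19 of 24 listed genes described as EGR targets were kept. Between Con-Pf and Con 2 rose, 0 fell and 17 did not pass, with a median log2 change of 0.00 beside 0.02 over all genes. The share of all kept probe sets called higher was 1.00% in this comparison and 0.171% against Nic. Arc, an activity-regulated synaptic protein that is itself an immediate early gene, was 11.20 ± 0.23 in Con-Pf and 10.10 ± 0.27 in Con (SD, log2 difference 1.1, SE 0.11, limma adjusted p = 4.66e-07). The myelin protein gene Pmp22 differed by 0.24 (SE 0.06, limma adjusted p = 0.0299). The receptor subunit gene Gabra4 (-0.15, adjusted p = 0.128) and Tgfb1 (0.15, adjusted p = 0.156) did not pass. Against Nic 1 of the 19 passed, Arc with a log2 difference of 0.85 (SE 0.12, limma adjusted p = 0.000501), and Pmp22 stood at 0.14 (adjusted p = 0.942). These lists were made with earlier results of the same arrays known and are not independent evidence of a direction.

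Among other immediate early transcription factors, 15 of 22 listed were kept. Between Con-Pf and Con 7 rose, 0 fell and 8 did not pass, with a median log2 change of 0.25 beside 0.02 over all genes. Of all kept probe sets 1.00% were called higher and 0.260% lower. Those that rose were Nr4a1 (1.44), Nr4a3 (1.11), Fos (1.07), Junb (0.79), Fosl2 (0.78), Klf4 (0.42) and Klf10 (0.25), so that the Egr2 change of 1.22 lay between those of Nr4a1 and Nr4a3 and the changes of Egr4 and Egr1 between those of Fosl2 and Klf4. The other probe set annotated as Fosl2 differed by 0.74 (SE 0.12, limma adjusted p = 0.000836). Npas4, a factor specific to neuronal activity, had a difference of 1.16 with a wide spread (SE 0.31, limma adjusted p = 0.0534). Jun (0.05, adjusted p = 0.528) and Nr4a2 (-0.41, adjusted p = 0.204) did not pass. Against Nic 3 of the 15 passed, Fos (0.98), Nr4a1 (0.97) and Junb (0.65), beside 0.171% of all kept probe sets called higher. In none of the 5 lists was a gene called between Nic and Con.

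**Figure D4:**
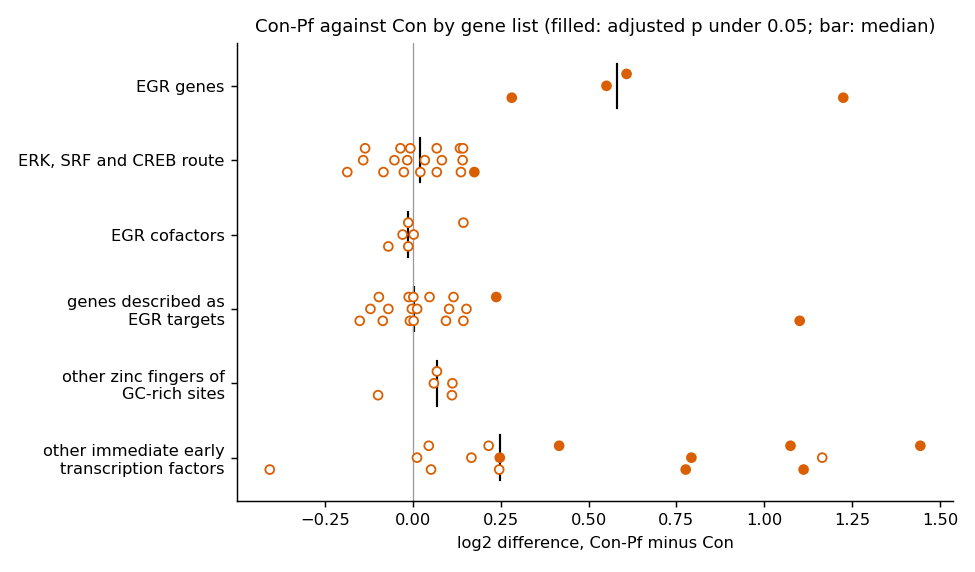
Log2 difference between Con-Pf and Con (x axis) of the kept genes of each list (y axis), 1 point per gene, with filled points for an adjusted p under 0.05 and a bar at the list median. The 4 EGR genes and 7 of 15 other immediate early factors are filled, against 1 of 19 upstream genes, 0 of 6 cofactors, 2 of 19 described targets and 0 of 5 other zinc fingers. Of all kept probe sets 1.00% were called higher and 0.260% lower.

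Markers of cortical and thalamic excitatory neurons moved between arrays and were read beside the members. Of 11 listed, 3 passed the filter (Slc17a7, Cck and Fezf2), and Neurod2, Neurod6 and Slc17a6 were measured below it. Their mean level was 7.36 to 8.49 in Con, 7.29 to 9.11 in Nic and 7.25 to 7.77 in Con-Pf. The highest arrays were in Nic and the lowest in Con-Pf. The part of these cells in the EGR differences was not tested. Slc17a7, the vesicular glutamate transporter of cortical neurons, was at -0.63 between Con-Pf and Con (limma adjusted p = 0.3) and at -1.18 between Con-Pf and Nic (adjusted p = 0.576). Over deviations from group means, r between this marker level and the members lay between -0.26 (Egr3) and -0.15 (Egr2), with permutation adjusted p of 0.539 to 0.639. Choroid plexus markers (2 of 7 kept) spanned 6.93 to 11.3 in Con, 6.88 to 9.48 in Nic and 7.04 to 11.82 in Con-Pf. Of the kept markers of oligodendrocytes, astrocytes, microglia and endothelial cells none was called in any comparison. With 1.00% of all kept probe sets called higher and 0.260% lower between Con-Pf and Con, such short lists need hold no call. Their median log2 changes in that comparison were 0.01, -0.10, 0.06 and -0.04, in the order named, beside 0.02 over all genes. Whether the mix of cells differed between groups was not tested.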

How the data were processed

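Striatal RNA of 25 rats was hybridised by the authors to Affymetrix rat GeneChip 1.0st arrays, and the deposited table holds log2 expression values per probe set after quantile normalization and summary by RMA (the submitters' notes name Affymetrix Expression Console 1.1, the methods the affy package). Quantile normalization gives every array the same distribution, so a shift shared by all genes cannot be seen. Some arrays were removed by the authors for quality before deposit. Probe annotation came from the platform table, where 15310 probe sets had 1 symbol, 323 several and 13581 none. Arrays were grouped by their titles. The genome build of the deposited table was not given in the sources used here.

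Probe sets with a mean at or above the median (14607 of 29214) were fitted in R 4.3.3 with limma 3.58.1, 1 model over the 3 groups, Benjamini-Hochberg adjustment, call at an adjusted p under 0.05. The scripts were tested on simulated data. Pair differences and correlations were computed with scipy 1.17.1. Named genes were the 4 members, list genes that passed, at most 4 others per list with the smallest p, and the 5 genes most correlated with each member. The members and lists were chosen with earlier results of these data known. Alternatives were the methods' t-test, the 2 compared groups alone, other filters and scalings, leaving out each array, Con 3 and 5 or Con-Pf 9 and 10, and the replicate number as a block.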

Additional observations from a re-analysis of the deposited data

How the results depend on the processing

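Each member's direction was kept under every alternative run, except that the Nic minus Con difference of Egr4 turned to -0.043 when Con-Pf 9 and Con-Pf 10 were counted as Con. No scaling changed the call of a member. Counting those 2 arrays as Con left 2 members called between Con-Pf and Con (Egr3 0.22, adjusted p = 0.31, and Egr4 0.40, adjusted p = 0.283, were lost) and 0 between Con-Pf and Nic (Egr1 0.35, adjusted p = 0.44, Egr2 0.89, adjusted p = 0.225, and Egr4 0.44, adjusted p = 0.768, were lost). Leaving them out lost Egr3 (0.28). The Egr3 call between Con-Pf and Con was also lost by the methods' t-test (0.28, adjusted p = 0.293), in the 2 groups alone (0.28, adjusted p = 0.0835), without a filter (0.28, adjusted p = 0.0825), by the thresholds of the study (0.28) and without Con 3 and Con 5 (0.16). Leaving out 1 array at a time, it ran from 0.22 to 0.32 and was lost without Con 1, Con 3, Con 5, Con-Pf 2, Con-Pf 4 or Con-Pf 6 (adjusted p up to 0.0831). Between Con-Pf and Nic, Egr4 was lost by the methods' t-test (0.49, adjusted p = 0.129), and over the leave-one-out fits it ran from 0.45 to 0.54, lost without Nic 7. The thresholds of the study kept 1 member there, without Egr1 (0.35) and Egr4 (0.49). A filter at the 0.75 quantile removed Egr2 and Egr4 and left 2 called between Con-Pf and Con and 1 between Con-Pf and Nic. Of all probe sets that this filter kept, 124 and 14 were called in these comparisons.

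Replicate numbers are shared between the groups. The 21 same-number pairs deviated together at r = -0.362 to 0.341, 10 of them over 0.1. Of 21 arrays, 5 correlated best with their own number, and how many would do so without pairing was not computed. The study extracted equal numbers of each group on the same day, but the labels do not tie arrays to days. The numbers were not taken as pairs in the main fit, and a shared batch was not tested. With the replicate block over replicates 1 to 7, Egr3 was 0.31 between Con-Pf and Con (adjusted p = 0.0722). Between Con-Pf and Nic 1 member was called with this block, among 14 probe sets called of all. Egr1 stood at 0.33 there (adjusted p = 0.0619) and Egr4 at 0.40 (adjusted p = 0.11). The same arrays without the block gave 0.31 for Egr3 (adjusted p = 0.0584) and 0.40 for Egr4 (adjusted p = 0.146).

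Of the 6 correlations between members, 3 passed. With group means kept, 6 passed, without the 2 farthest arrays 5, in Con alone 0, in Nic alone 1. Egr3 and Egr4 turned to -0.12 in Con-Pf alone and to -0.00014 without Con 3 and Con 5. The arrays hold only log2 values, so signal over background was not available.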

Other observations

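The choroid plexus marker level varied most between arrays of 1 group, and its r with the members over deviations from group means was 0.13 for Egr1, 0.02 for Egr2, 0.27 for Egr3 and 0.06 for Egr4 (permutation within groups, adjusted p = 0.73, 0.913, 0.539 and 0.9, over 12 relations). The arrays with conflicting labels had Egr2 levels of 9.29 (Con-Pf 9) and 9.17 (Con-Pf 10) and Egr1 levels of 12.47 and 12.63. Their Egr4 levels were 8.75 and 9.03 and their Egr3 levels 10.94 and 11.01. Each was above the highest array titled as Con. For Egr1, Egr2 and Egr4 this follows from the absence of overlap given above. These are the genes under study, so their levels are not evidence on the labels.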
